A study of Mus musculus with 10 samples.

Results

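Lungs of ICR mice that had breathed 80% oxygen were compared with lungs of ICR mice kept in room air at postnatal day 14 (P14), on expression arrays that measure nearly all mouse genes at once. The comparison used 3 hyperoxia arrays and 2 room-air arrays, 5 of the 10 arrays of the study, chosen by their labels. The other 5 arrays came from the same exposures carried on to day 29 (P29), with 3 hyperoxia and 2 room-air arrays, and were used for the spread between arrays and for side-by-side values. Sex-linked transcripts had the male pattern on all P14 arrays and the female pattern on both P29 room-air arrays. Age and sex therefore cannot be told apart where P14 values are set beside P29 room-air values. Litters were mixed and assigned at random within 12 h of birth, dams changed places between the exposures every 24 h, and RNA came from dissected, rinsed lungs. The labels name no transgene or further agent. Whether an array stands for an animal, a pool or a repeat is not stated, so the p-values measure the spread between arrays, part of which could be technical.

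Mouse lungs form most of their alveoli in the first weeks after birth, as septa carrying capillaries and elastic fibres divide the larger airspaces. Excess oxygen in that period is used to model bronchopulmonary dysplasia, the lung disease of preterm infants treated with oxygen, in which alveoli stay few and large. Injured lungs are known to induce detoxifying enzymes, stress genes and inflammatory mediators, and septation is known to depend on platelet-derived growth factor, retinoid, Wnt and vascular signals.

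Of 18193 genes with a probe set of their own, 14988 passed the filter on low values, and each was represented by its brightest probe set. Values are log2 levels, on which a difference of 1 is a 2-fold change, and a gene is said to have risen or fallen where limma's test gave a Benjamini-Hochberg adjusted p under 0.05 over all 14988 genes. By this rule 4838 genes (32.3%) rose and 3412 (22.8%) fell, 55% in either direction. A change of 2-fold or more was seen in 591 genes that rose (3.94%) and 152 that fell (1.01%), and the median difference of all genes was 0.04. The share of calls that were rises was 58.6% as deposited, 46.8% after quantile normalization and 35.4% after scaling to the 75th percentile, where the all-gene median lay at -0.14. All hyperoxia arrays lay above both room-air arrays in 39.6% of the genes tested, and below both in 31.7%. With 55% of genes called, a list of genes is described below by its counts beside these shares. No list was tested as a set. A list said to change in both directions may lie near the shares over all genes.

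Within a P14 group, arrays correlated across genes with r between 0.994 and 0.996, and between the P14 groups with r between 0.959 and 0.970. Control probe sets also separated the groups. Signal from the 3′ end of the actin control exceeded that from its 5′ end, a sign of shortened transcripts, by 0.32 and 0.54 in room air and by 1.33 to 2.21 in hyperoxia. The 18S control stood at 7.37 and 7.66 against 8.84 to 9.83. Because no hyperoxia array had an actin value as low as a room-air array, oxygen and RNA quality cannot be told apart at P14. A fit with each array's actin value as a covariate is named "with the actin term", and its calls are given beside the lists described. It called 812 genes higher and 579 lower in all. Pairs of counts in brackets are rises and falls, in that order, and "with scaling" means scaling to the 75th percentile.

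The changes of largest size were found in detoxifying enzymes, airway genes, a matrix collagen and stress mediators. Ces1g, a carboxylesterase, was at 4.30 and 4.20 in room air and at 8.41, 8.36 and 8.51 in hyperoxia, a difference of 4.18 ± 0.11 (SE; adjusted p = 8.99e-09). The 3 hyperoxia arrays lay far above both room-air arrays and close to each other. The room-air values of Ces1g were below the filter of log2 5, where the size of a difference is uncertain. So were the P14 room-air means of Muc4 (4.70), Cxcl5 (4.35), Ces1f (4.19) and Il6 (3.83), also among the largest rises. The same held for Aldh3a1 (4.76), Ces1e (4.55), Sult1d1 (4.62), Tbx20 (4.26) and Rragd (4.94). The room-air means of Sox2 (5.72) and Col8a1 (5.46) lay above the filter. Sox2, a transcription factor of airway epithelium, rose from 5.55 and 5.89 to 8.61, 8.53 and 8.62, a difference of 2.87 ± 0.12 (adjusted p = 1.18e-07). Col8a1, a short-chain collagen chain of vessel walls and basement membranes, rose by 3.18 ± 0.13 (1.54 on its other probe set). Cckar, a cholecystokinin receptor, rose by 2.24 ± 0.15, and Rnf128, a ubiquitin ligase, by 2.24 ± 0.12. The largest falls were smaller than the largest rises. Falls of 2-fold or more numbered 152 against 591 rises as deposited, and 316 against 362 with scaling. Glp1r, the receptor of glucagon-like peptide 1, was at 6.92 and 6.07 in room air and 4.27, 4.30 and 4.01 in hyperoxia, a difference of -2.30 ± 0.21 (adjusted p = 1.17e-05), with no overlap of the groups. Among the largest falls, the P14 hyperoxia means of Glp1r (4.19), Clca1 (3.65), Crabp1 (4.91) and Egfem1 (4.99) were below log2 5. The sizes of these falls are uncertain too. Prss35, a secreted protein of the serine protease family, fell by 2.43 ± 0.22, the adenylate cyclase Adcy8 by 2.03 ± 0.16, and the amino acid transporter Slc7a10 by 1.72 ± 0.15. Bcat2, the mitochondrial aminotransferase of branched-chain amino acids, fell by 1.48 ± 0.10. Of the 60 genes with the largest rises and falls, 47 kept direction and call under every alternative tried and 13 lost the call with the actin term.

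**Figure D1:**
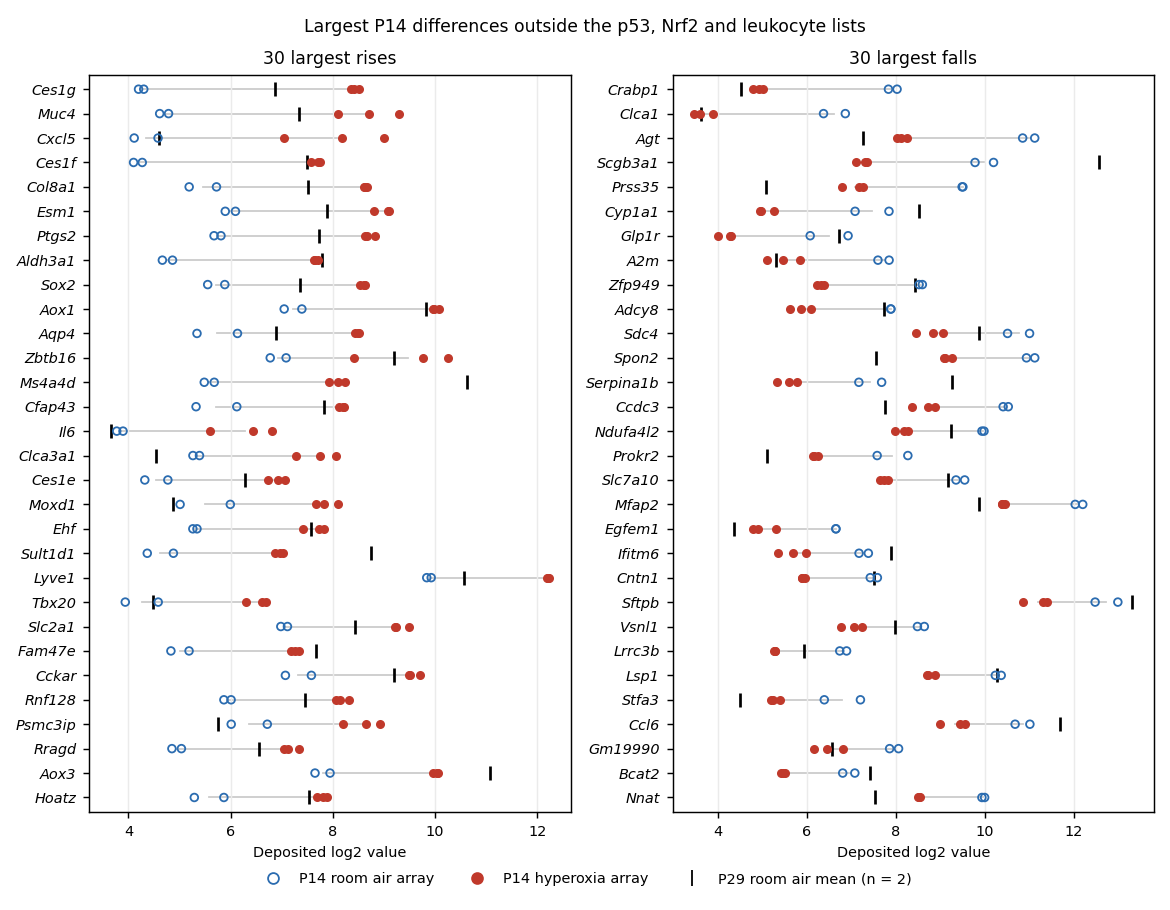
Log2 levels of the genes with the largest rises and falls at P14, by array, with 2 room-air and 3 hyperoxia points a gene and a black tick for the P29 room-air mean. The groups do not overlap for any gene shown, which is part of how the genes were chosen, and for Aldh3a1 and Aox1 the tick lies beside the P14 hyperoxia points.

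Enzymes that oxidise, hydrolyse or conjugate foreign compounds were higher in hyperoxia. Of 27 measured xenobiotic metabolism genes 17 rose and 2 fell, with a median of 0.62 (12 and 0 with the actin term). The aldehyde dehydrogenase Aldh3a1, which clears aldehydes from oxidised lipids, was at 4.66 and 4.86 in room air and at 7.63, 7.71 and 7.66 in hyperoxia (2.90 ± 0.16, adjusted p = 4.58e-07). The aldehyde oxidase Aox1 rose from 7.05 and 7.39 to 9.95, 9.98 and 10.07 (2.78 ± 0.13, adjusted p = 1.46e-07). For both genes the hyperoxia arrays sat near the room-air level of P29, 7.79 for Aldh3a1 and 9.82 for Aox1. The carboxylesterases Ces1f and Ces1e rose by 3.49 ± 0.15 and 2.36 ± 0.16, but Ces1 genes, like Aox1 and Aox3, are near copies of each other and their probes may share signal. Aldh1a7, another aldehyde dehydrogenase, rose by 1.86 ± 0.09, the aldo-keto reductase Akr1b8 by 1.56 ± 0.09 and the drug efflux pump Abcb1a by 1.30 ± 0.15.

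Cytochrome P450 genes of the same list went in different directions. Cyp1a1, an aryl hydrocarbon receptor target that lung capillaries express, was at 7.08 and 7.84 in room air and 4.96, 5.25 and 4.93 in hyperoxia, a difference of -2.41 ± 0.27 (adjusted p = 3.99e-05), and lost the call with the actin term (-2.23). Cyp1b1, another target of that receptor, rose by 2.14 ± 0.16 (0.87 on another probe set). Cyp2b10, a target of the constitutive androstane receptor, rose by 1.91 ± 0.24 (1.89 and 1.14 on its other probe sets) and also lost the call with the actin term (1.23). Cyp2f2 of airway club cells rose by 1.07 ± 0.07. The receptor's core motif, written TNGCGTG and searched on both strands in the 250 bases before the gene start, was in 0 of 22 promoters of the list and in 4.76% of 27025 RefSeq promoters.

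Genes for glucose uptake, its breakdown to lactate and the response to low oxygen were higher in these oxygen-exposed lungs. Of 28 hypoxia-inducible and glycolysis genes measured, 17 rose and 2 fell, with a median of 0.47 (6 and 0 with the actin term). Slc2a1, the glucose transporter of most cells, was at 6.98 and 7.11 in room air and 9.22, 9.23 and 9.49 in hyperoxia, a difference of 2.27 ± 0.12 (adjusted p = 4.2e-07), with 1.84 and 0.56 on its other probe sets. Ankrd37, an ankyrin repeat protein induced through hypoxia-inducible factors, rose from 7.51 and 7.59 to 9.79, 9.60 and 9.58 (2.10 ± 0.10, adjusted p = 1.46e-07). The hyperoxia arrays of both genes stood apart from the room-air arrays. Pdk1, which restrains pyruvate entry into mitochondria, rose by 1.23 ± 0.12 (0.36 and 1.62 on its other probe sets), the hexokinase Hk2 by 1.16 ± 0.11 and the phosphoglycerate kinase Pgk1 by 0.86 ± 0.10. Egln3, an oxygen-sensing prolyl hydroxylase that hypoxia induces, was at 7.24 and 7.42 against 6.88, 6.53 and 6.69 (-0.63 ± 0.17, adjusted p = 0.00796). So a member of the list fell where the transporters and kinases rose, although Egln3 lost the call with the actin term. The angiogenic ligand Vegfa differed by 0.13 ± 0.10 (adjusted p = 0.284; -0.82 on its other probe set) and was not called.

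The core letters bound by hypoxia-inducible factors, ACGTG, were searched on both strands in the 250 bases before the gene start. They were in 20 of the 26 promoters of the list (76.9%) and in 18.5% of all promoters, and the palindrome CACGTG matches on both strands. Of the 16 members with a promoter that rose at P14, 11 held the letters, and of the 10 that did not rise, 9 did. Windows around matches of 4 genes that rose are shown because they place the motif at different distances from the start. They are from RefSeq on GRCm38.p6, 5′ to 3′ on the strand of the gene, with 1 match to the motif or its reverse complement in capitals. The Pgk1 window holds another match, from -131, left in lower case. Slc2a1 lies at chr4:119108674-119108744 on the plus strand with the motif from position -36, Hk2 at chr6:82774467-82774541 on the minus strand from -52, Pgk1 at chrX:106186915-106186989 on the plus strand from -150, and Ankrd37 at chr8:45999851-45999891 on the minus strand from -6.
Slc2a1: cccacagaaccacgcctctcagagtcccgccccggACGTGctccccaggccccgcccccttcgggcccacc
Hk2: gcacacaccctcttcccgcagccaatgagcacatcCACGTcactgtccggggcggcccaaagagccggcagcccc
Pgk1: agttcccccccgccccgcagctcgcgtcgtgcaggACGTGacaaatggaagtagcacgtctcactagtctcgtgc
Ankrd37: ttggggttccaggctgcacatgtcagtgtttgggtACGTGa
A match is a description of these letters and not a measured binding site.

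Immediate early genes, the transcription factors and phosphatases that cells switch on within minutes of a stimulus, were also higher. Of 24 immediate early genes 16 rose and 3 fell, with a median of 0.72 (3 and 0 with the actin term). Klf4, a zinc finger factor, was at 10.41 and 10.79 in room air and 12.20, 11.89 and 12.03 in hyperoxia (1.43 ± 0.14, adjusted p = 1.76e-05). Egr1 rose from 8.96 and 9.50 to 11.45, 11.42 and 11.37 (2.18 ± 0.38, adjusted p = 0.000648), and Fos from 8.24 and 8.10 to 9.93, 10.04 and 10.08 (1.84 ± 0.38, adjusted p = 0.00199). The groups did not overlap for these 3 genes, although the 2 P29 room-air arrays of Egr1, at 10.86 and 9.41, show how far arrays of a group can lie apart. Fos lost the call with the actin term (2.18). Since 3 members of the list rose with that term, not all the other rises named here and below kept the call. Atf3, a stress-induced repressor, rose by 1.73 ± 0.21.

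Promoters of this list were searched on both strands for the serum response factor site known as the CArG box and for the cyclic AMP response element TGACGTCA. The CArG box was in 3 of 20 promoters (1.62% of all promoters) and the element in another 3 (1.77%), those of Btg2, Dusp1 and Maff. Zfp36, which binds and destabilises cytokine messages, rose by 0.72 ± 0.14, and the phosphatase Dusp1 by 0.79 ± 0.17. Their windows are shown with the CArG box and the element in capitals, Zfp36 at chr7:28379242-28379321 and Dusp1 at chr17:26508573-26508650, both on the minus strand. These genes, like Btg2, Maff, Dusp5 and Hspe1, were named for their motif and not by the rule for named genes.
Zfp36: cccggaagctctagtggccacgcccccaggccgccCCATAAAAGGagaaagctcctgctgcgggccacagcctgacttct
Dusp1: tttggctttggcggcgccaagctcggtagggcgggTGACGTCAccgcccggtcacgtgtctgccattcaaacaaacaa
Dusp5, whose window holds CArG boxes, fell by 0.39 ± 0.11, without the call with the actin term.

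Chaperones that refold damaged proteins rose with them. Of 20 heat shock and chaperone genes 14 rose and 1 fell, with a median of 0.47 (5 and 0 with the actin term, 9 and 0 when probe sets were averaged). Hspa1a was at 5.68 and 5.90 in room air and 7.53, 7.55 and 7.50 in hyperoxia (1.73 ± 0.17, adjusted p = 1.76e-05), and its near-identical neighbour Hspa1b rose by 1.42 ± 0.15, so their signals may be shared. Hspa4l, a heat shock protein of the Hsp110 family, rose by 1.23 ± 0.13, and Dnajb4, a co-chaperone, by 0.88 ± 0.08 (0.59 and -0.11 on its other probe sets). The heat shock element, in which the units GAA, TTC and GAA are parted by any 2 bases each, was searched on both strands and was in 2 of 17 promoters, the shared region of Hspd1 and Hspe1, and in 0.514% of all promoters. Hspe1, a mitochondrial chaperonin, rose by 0.27 ± 0.10 (adjusted p = 0.0357; -0.28 on its other probe set).

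Genes of motile cilia, which sweep mucus along the airways, were higher in nearly every member of their list. Of 25 ciliated cell genes 21 rose and 1 fell, with a median of 1.08 (9 and 0 with the actin term), and their summed level (the log2 of the sum of the members' linear values) was 12.2 and 12.5 in room air and 12.8 to 12.9 in hyperoxia. Foxj1, the master regulator of motile cilia, was at 6.59 and 6.86 in room air and 7.43, 7.43 and 7.59 in hyperoxia (0.76 ± 0.13, adjusted p = 0.000645), and lost the call with the actin term (0.41). Ak7, an axonemal adenylate kinase, rose from 7.81 and 7.76 to 9.30, 9.13 and 9.27 (1.45 ± 0.11, adjusted p = 4.11e-06). Enkur, an axonemal adaptor, rose from 5.96 and 6.52 to 8.12, 7.76 and 7.91 (1.69 ± 0.17). No hyperoxia array of these genes came as low as a room-air array. At P29 the room-air means were 7.89 for Foxj1 and 9.44 for Ak7, above the P14 hyperoxia arrays, and 7.94 for Enkur, among them. The radial spoke gene Rsph4a rose by 1.18 ± 0.12 and Mns1, a flagellar assembly factor, by 1.27 ± 0.12. Tppp3, a tubulin polymerization protein, was the member that fell (-0.50 ± 0.10). The X-box of the RFX factors, an inverted repeat of GTTNCC and GGNAAC parted by any 2 bases, was searched on both strands and was in 0 of 18 promoters of the list and in 0.444% of all.

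Markers of mesothelium, the layer that covers the lung surface, were also higher. Of 10 mesothelial markers 9 rose and 0 fell, with a median of 1.37 (5 and 0 with the actin term), and their summed level was 11.93 and 12.05 in room air, 12.87 to 12.94 in hyperoxia, and 12.82 and 12.97 in P29 room air. Gpm6a, a membrane glycoprotein, was at 7.93 and 7.81 in room air and 9.91, 9.79 and 9.91 in hyperoxia (1.99 ± 0.09, adjusted p = 1.46e-07). Muc16, the cell-surface mucin of mesothelium, rose from 5.74 and 5.50 to 7.53, 7.39 and 7.69 (1.92 ± 0.16, adjusted p = 7.48e-06), and Lrrn4 by 1.67 ± 0.22. The transcription factor Wt1 rose by 0.95 ± 0.13 and Upk3b by 1.12 ± 0.17, the latter no longer called with the actin term. The keratin Krt19, which airway and alveolar epithelium also express, was the exception at -0.12 ± 0.12 (adjusted p = 0.39).

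Heart muscle markers were measured beside the mesothelial list, since heart tissue can come along with lung. Of 16 heart muscle markers 7 rose, 1 fell and 8 were not called, with a median of 0.42 (1 and 0 with the actin term). Their summed level was 12.9 and 13.1 in room air, 13.6 to 13.8 in hyperoxia and 14.0 to 14.2 in P29 room air. Myh6, the atrial myosin chain, was at 9.86 and 10.32 against 11.28, 11.50 and 11.52 (1.34 ± 0.25, adjusted p = 0.00106), with -0.15 on its other probe set, and lost the call with the actin term (1.16). Mouse pulmonary veins carry heart muscle of their own, and the part that dissection has in the heart and mesothelial values was not tested. In whole lung, more cells of a type and more RNA per cell cannot be told apart, which applies to every cell type named here.

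**Figure D2:**
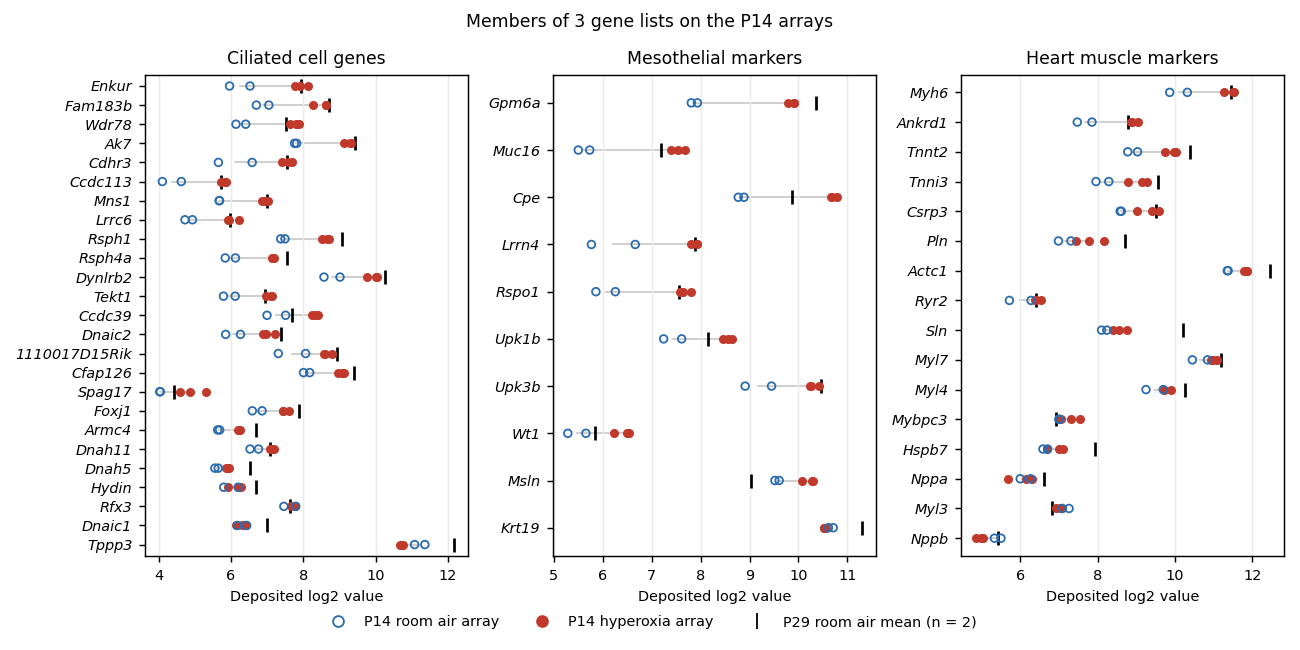
Log2 levels of each measured member of the ciliated cell, mesothelial and heart muscle lists by P14 array, with the P29 room-air mean as a black mark. Hyperoxia points lie above room-air points for 21 ciliated and 9 mesothelial genes, and the P29 room-air marks of Foxj1 and Gpm6a lie above the hyperoxia points.

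Genes of airway secretory cells changed in both directions. Of 24 airway secretory cell genes 11 rose and 6 fell (6 and 1 with the actin term, 8 and 11 with scaling), with a median of 0.09. Muc4, a membrane-bound mucin, was at 4.61 and 4.78 in room air and 8.10, 9.29 and 8.71 in hyperoxia, a difference of 4.002 ± 0.26 (adjusted p = 1.46e-06), while its other probe set differed by 0.38. Pigr, which carries antibodies across the epithelium, rose by 1.58 ± 0.23, and the uteroglobin relative Scgb3a2 by 0.71 ± 0.08. Scgb3a1, a secretoglobin of the larger airways, was at 10.20 and 9.78 in room air and 7.34, 7.10 and 7.29 in hyperoxia (-2.74 ± 0.20, adjusted p = 2.87e-06). The mucous cell genes Clca1 (-2.97 ± 0.33), Tff2 (-0.90 ± 0.19) and Muc5b (-0.72 ± 0.23) were also lower. With the actin term Clca1 (-2.51), Tff2 and Muc5b lost the call, and Scgb3a1 was the member still called lower.

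Surfactant genes of alveolar type 2 cells were lower or level. Of 19 alveolar type 2 cell and surfactant genes 1 rose and 7 fell, with a median of -0.12 (0 and 11 after scaling to the 75th percentile, 0 and 1 with the actin term). Sftpb, the surfactant protein without which newborns cannot breathe, was at 12.995 and 12.48 in room air and 11.32, 10.86 and 11.39 in hyperoxia (-1.55 ± 0.18, adjusted p = 5.7e-05). Napsa, the protease that processes it, fell from 12.07 and 11.95 to 10.91, 10.62 and 10.80 (-1.23 ± 0.14; -0.73 on its other probe set), and Nkx2-1, the lung epithelial transcription factor, by 0.81 ± 0.18. Both lost the call with the actin term (-1.06 and -1.02). Sftpc stood at -0.05 ± 0.08 (adjusted p = 0.611) on a probe set near 14.8 on all arrays, where a difference may be compressed, and at 1.27 on the other.

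Alveolar type 1 cells, which form the gas exchange surface, showed 6 rises and 3 falls among 20 alveolar type 1 cell genes (2 and 0 with the actin term, 5 and 6 with scaling), with the marker Ager at 0.01 ± 0.08 and at -0.49 on its other probe set. Of 17 injured alveolar epithelium genes 8 rose and 2 fell (3 and 0 with the actin term, 7 and 5 with scaling). Among its keratins Krt18 rose by 0.76 ± 0.09 and Krt8 by 0.57 ± 0.13, the latter not called with the actin term, while Krt19 was not called. Itgb6, the integrin chain that activates latent TGF-beta, rose by 1.41 ± 0.26 (0.16 on its other probe set). Among 19 fluid transport channels and pumps 9 rose and 4 fell (1 and 0 with the actin term). The water channel Aqp4 rose from 5.34 and 6.13 to 8.44, 8.48 and 8.51 (2.74 ± 0.20, adjusted p = 3.57e-06; 1.54 on its other probe set), with the groups well apart. All 3 sodium channel subunits that drain alveolar fluid rose, Scnn1b by 0.97 ± 0.11, Scnn1g by 0.73 ± 0.09 and Scnn1a by 0.63 ± 0.12, and each lost the call with the actin term.

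Endothelial genes changed in both directions, with capillary genes lower more often than higher. Of 22 pan-endothelial genes 7 rose and 7 fell, and of 23 alveolar capillary genes 6 rose and 9 fell, both with a median of -0.04. With the actin term 2 pan-endothelial genes rose and 3 fell, and 2 alveolar capillary genes rose and 6 fell. Kit, a receptor of the capillary cells that support regeneration, was at 10.39 and 10.31 in room air and 8.32, 8.92 and 8.79 in hyperoxia (-1.67 ± 0.17, adjusted p = 2.35e-05). The junction protein Pecam1 fell by 0.88 ± 0.10 and the transcription factor Sox18 by 0.94 ± 0.10, Pecam1 without the call with the actin term (-0.52). Vwf, the clotting factor carrier of larger vessels, rose instead, from 9.99 and 10.53 to 11.64, 11.82 and 11.77 (1.48 ± 0.14, adjusted p = 1.69e-05). Plvap, which forms the diaphragms of vessel pores, rose by 1.02 ± 0.10, and Ackr3, a scavenging chemokine receptor, by 1.32 ± 0.10. Cdh5, the junction cadherin, stood at 0.19 ± 0.13 and at -1.60 on its other probe set, so no direction is given.

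Tip cells, which lead sprouting vessels, and lymphatic vessels showed single large rises. Esm1, a proteoglycan secreted by tip cells, was at 5.89 and 6.09 in room air and 9.09, 8.80 and 9.09 in hyperoxia (2.999 ± 0.14, adjusted p = 1.95e-07). Of the 20 endothelial tip cell genes 7 rose and 5 fell (1 and 1 with the actin term, 5 and 7 with scaling or quantile normalization, 4 and 5 without room-air array 1). The shares of that list, 35% and 25%, lay near those over all genes, 32.3% and 22.8%. The Notch ligand Dll4 fell by 0.66 ± 0.13, with -0.00 and no call with the actin term. Lyve1, the hyaluronan receptor of lymphatic vessels and of some macrophages, rose from 9.84 and 9.92 to 12.19, 12.21 and 12.23 (2.33 ± 0.10, adjusted p = 1.18e-07; 2.60 on its other probe set). The lymphatic growth factor Vegfc rose by 1.15 ± 0.09. Of 10 lymphatic endothelial genes 6 rose and 2 fell (3 and 1 with the actin term), with a median of 0.63, and the Vegfc receptor Flt4 differed by 0.05 ± 0.12 (adjusted p = 0.756; -0.43 on its other probe set).

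Genes of the angiotensin system, which raises vascular tone, both rose and fell. Agt, the precursor of angiotensin, was at 10.85 and 11.12 in room air and 8.26, 8.03 and 8.11 in hyperoxia, a difference of -2.86 ± 0.21 (adjusted p = 2.86e-06). Its P29 room-air mean was 7.26. The receptor Agtr1a fell from 8.71 and 8.51 to 7.52, 7.66 and 7.72 (-0.98 ± 0.12), and the second receptor, Agtr2, rose from 4.27 and 4.24 to 5.82, 5.26 and 5.87 (1.40 ± 0.17), all without overlap of the groups. The room-air values of Agtr2 were below the filter of log2 5, where the size of a difference is uncertain. The constrictor endothelin, Edn1, rose by 1.56 ± 0.22, the nitric oxide synthase Nos3 by 0.88 ± 0.11 and the natriuretic peptide clearance receptor Npr3 by 1.43 ± 0.11 (0.28 and 0.50 on its other probe sets). Over the 24 vasoactive and angiotensin system genes 6 rose and 8 fell (1 and 3 with the actin term). That term ended the calls of Agtr2 and Nos3. With 1 rise left in the list, Edn1 and Npr3 did not both keep theirs.

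Of the platelet-derived growth factor pair that drives septation, the receptor fell, and the ligand rose on the brighter of its probe sets. Pdgfra, the receptor of the alveolar myofibroblast precursors, was at 11.33 and 11.27 in room air and 9.81, 10.23 and 10.04 in hyperoxia (-1.28 ± 0.11, adjusted p = 8.33e-06; -0.42 and -2.05 on its other probe sets). Its ligand Pdgfa rose from 9.35 and 9.70 to 10.21, 10.19 and 10.34 (0.72 ± 0.11, adjusted p = 0.00027), with 0.18 on its other probe set, and lost the call with the actin term (0.48). The Notch ligand Jag1 rose by 1.49 ± 0.16 (1.26 and -0.23 on its other probe sets). Of 25 signals of alveolar septation 10 rose and 8 fell, with a median of 0.01 (2 and 1 with the actin term, 8 and 12 with scaling, 11 and 5 without room-air array 2).

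Retinoid genes changed in both directions. The retinal dehydrogenases that make retinoic acid rose, Aldh1a1 from 11.80 and 12.08 to 13.46, 13.49 and 13.50 (1.54 ± 0.09, adjusted p = 9.72e-07) and Aldh1a2 from 7.97 and 7.42 to 9.43, 9.19 and 9.61 (1.72 ± 0.20). Crabp1, the cytosolic protein that binds retinoic acid, fell from 7.83 and 8.03 to 4.92, 4.79 and 5.01 (-3.02 ± 0.11, adjusted p = 6.3e-08). The groups were apart in each case, and the P29 room-air mean of Crabp1 was 4.51. The receptor Rara fell by 0.80 ± 0.10 and the carrier Rbp4 rose by 1.32 ± 0.16. Aldh1a2, Rara and Rbp4 lost the call with the actin term, and over the list of 21 retinoid handling genes 6 rose and 8 fell (2 and 3 with the actin term, 5 and 5 without hyperoxia array 1).

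Wnt genes were lower in more members than they were higher, 10 against 8 of 31 Wnt genes, with a median of -0.13 (16 against 5 with scaling, 3 against 3 with the actin term, 9 against 5 and 10 against 5 without room-air array 1 or 2). The mesenchymal ligand Wnt2 was at 9.69 and 9.99 in room air and 8.67, 8.51 and 8.61 in hyperoxia (-1.25 ± 0.11, adjusted p = 1.06e-05), and the nuclear effector Lef1 fell by 0.89 ± 0.08. Other members rose. Sfrp2, a Wnt-binding protein, was at 7.70 and 7.29 against 9.25, 9.21 and 9.21 (1.73 ± 0.11, adjusted p = 1.51e-06). The Wnt inhibitor Apcdd1 rose by 1.34 ± 0.14 (0.99, 0.92, 0.06 and 0.07 on its other probe sets), and Rspo1, which amplifies Wnt signals and is also a mesothelial marker, by 1.61 ± 0.15.

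**Figure D3:**
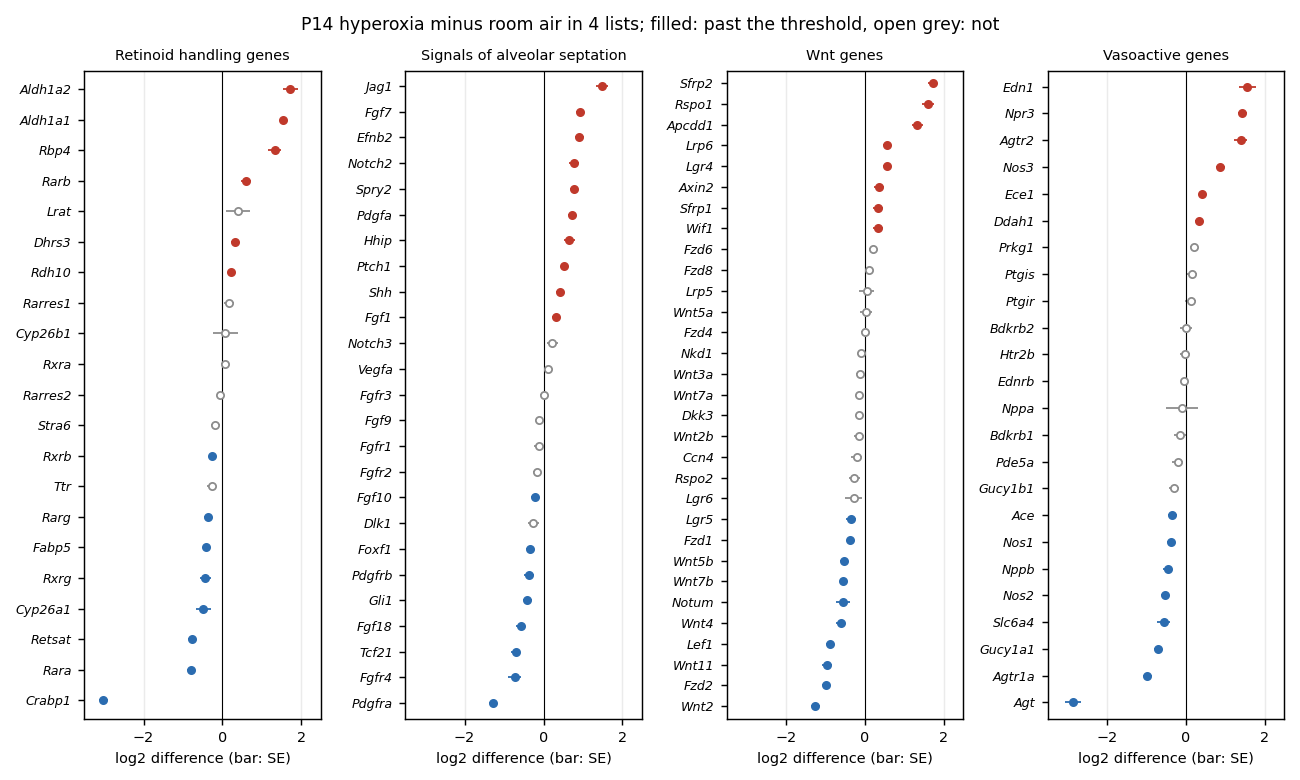
Differences at P14 (hyperoxia minus room air, log2, with SE) of the measured members of the retinoid, septation, Wnt and vasoactive lists, filled where past the threshold. Crabp1 at -3.02 and Agt at -2.86 lie at the low end, and Sfrp2 at 1.73 and Aldh1a2 at 1.72 at the high end.

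Growth factor lists of the TGF-beta and bone morphogenetic protein (BMP) families went both ways, with shares near those over all genes, 32.3% and 22.8%. Rises made up 37.5% of TGF-beta and activin genes and 34.6% of BMP genes, and falls 25% and 19.2%. Tgfb1 fell from 8.89 and 9.36 to 8.13, 8.25 and 8.32 (-0.89 ± 0.14, adjusted p = 0.000354; -0.36 on its other probe set), while Ltbp1, which stores the latent form in matrix, rose by 0.83 ± 0.09 (0.20 and 0.27 on its other probe sets) and the activin chain gene Inhbb by 1.43 ± 0.15 (-0.42 on its other probe set, and no call with the actin term). Of 24 TGF-beta and activin genes 9 rose and 6 fell (2 and 2 with the actin term, 6 and 8 with scaling). Acvrl1, the endothelial BMP receptor, fell from 10.22 and 10.21 to 9.07, 9.13 and 9.22 (-1.07 ± 0.09, adjusted p = 6.64e-06; 0.33 on its other probe set). Bmpr1b, another BMP receptor, rose by 1.74 ± 0.12, and of 26 BMP genes 9 rose and 5 fell (1 and 2 with the actin term, 6 and 11 with scaling, 6 and 9 with quantile normalization, 4 and 4 without room-air array 1).

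More elastic fibre genes fell than rose. Of 17 elastic fibre genes 3 rose and 7 fell, with a median of -0.28 (12 fell after scaling to the 75th percentile, and 1 rose and 3 fell with the actin term). Mfap2, a microfibril protein, was at 12.21 and 12.04 in room air and 10.39, 10.46 and 10.39 in hyperoxia (-1.70 ± 0.08, adjusted p = 1.95e-07; -1.12 on its other probe set). Emilin1, which joins elastin to microfibrils, fell by 0.96 ± 0.08, and Mfap4 by 0.84 ± 0.12. The P29 room-air means were lower again, 9.87 for Mfap2 and 8.39 for Emilin1. Elastin itself, Eln, stood at -0.36 ± 0.14 (adjusted p = 0.052) and at -1.85 on its other probe set. Efemp1, a fibulin, rose by 0.85 ± 0.09.

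Collagen genes changed in both directions, and the main fibrillar collagens were not called. Col1a1 differed by 0.00 ± 0.11 (adjusted p = 0.976; 0.78 on its other probe set) and Col1a2 by 0.02 ± 0.08 (0.27 and -0.56 on its other probe sets), and of 30 collagen chain genes 7 rose and 6 fell (6 and 9 with scaling, 6 and 7 with quantile normalization, 2 and 2 with the actin term). Of the basement membrane chains of collagen IV, Col4a4 rose from 11.81 and 11.86 to 12.75, 12.69 and 12.66 (0.86 ± 0.07, adjusted p = 8.15e-06) and Col4a5 by 0.78 ± 0.13 (-0.33 on its other probe set, and no call with the actin term), and Col4a1, Col4a2, Col4a3 and Col4a6 were not called. Matricellular proteins, which tune cell adhesion, rose in 14 and fell in 7 of 29 matricellular and adhesion glycoprotein genes (4 and 1 with the actin term, 13 and 4 without room-air array 1). Ccn1 and Ccn2, targets of the mechanosensing factor YAP, rose by 1.75 ± 0.21 and 1.47 ± 0.14, with Ccn2 at 12.32 and 12.21 in room air and 13.86, 13.64 and 13.70 in hyperoxia. The small proteoglycans Lum and Dcn rose by 1.69 ± 0.16 and 1.17 ± 0.13, and Spon2, a secreted matrix protein, fell by 1.88 ± 0.13 (-0.63 on its other probe set). The protease inhibitor Timp1 rose by 1.21 ± 0.12 and A2m, a general protease inhibitor, fell by 2.25 ± 0.22. A2m and Timp1 lost the call with the actin term.

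Genes of cell division were higher by small amounts. Of 28 DNA replication genes 15 rose and 1 fell, with a median of 0.42, and of 29 mitosis genes 20 rose and 0 fell, with a median of 0.49. Mki67, a marker of dividing cells, was at 9.80 and 10.19 in room air and 10.63, 11.02 and 10.85 in hyperoxia (0.84 ± 0.13, adjusted p = 0.000308). These counts rested on room-air array 1, without which 6 DNA replication genes and 9 mitosis genes rose, and with the actin term 0 of either list were called. At P29 Mki67 differed by 2.97 between the exposures, with a room-air mean of 7.47. Imprinted genes, many of which promote growth before birth, changed in both directions. Of 12 imprinted growth genes 3 rose and 4 fell (1 and 0 with the actin term). Among them Mest fell by 1.37 ± 0.19 and Grb10 by 0.51 ± 0.08 (-1.01 and -2.69 on its other probe sets). Nnat, an imprinted gene outside that list, fell by 1.44 ± 0.10 and kept the call with the actin term. Igf1 differed by 0.19 ± 0.19 (adjusted p = 0.416; 0.30, 0.29 and -0.30 on its other probe sets), and Pappa2, which frees IGF from its binding proteins, rose by 1.19 ± 0.20. Mest, Grb10 and Pappa2 lost the call with the actin term.

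Among inflammatory mediators, Tslp, Il6 and Cxcl5 rose while Il1b and Ccl6 fell. Tslp, an epithelial alarmin, was at 6.67 and 6.86 in room air and 8.44, 8.61 and 8.56 in hyperoxia (1.77 ± 0.09, adjusted p = 4.36e-07). Il6 rose from 3.77 and 3.89 to 5.60, 6.82 and 6.43 (2.45 ± 0.27, adjusted p = 4.03e-05), and the neutrophil attractant Cxcl5 from 4.11 and 4.58 to 7.04, 9.01 and 8.18 (3.73 ± 0.46, adjusted p = 8.12e-05). The hyperoxia arrays of these 2 genes were spread over more than a unit, with array 1 lowest, and both lost the call with the actin term. The receptor Osmr rose by 1.45 ± 0.09 (0.17 and 0.22 on its other probe sets) and Il6ra by 1.91 ± 0.11 (-0.28 on its other). Il1b fell by 0.75 ± 0.13 and its antagonist Il1rn by 1.15 ± 0.19, and Ccl6, a myeloid chemokine, by 1.52 ± 0.26 (-0.91 on its other probe set); all 3 lost the call with the actin term. Of 23 cytokine and alarmin genes 8 rose and 6 fell (3 and 2 with the actin term, 8 and 12 with scaling, 8 and 3 without room-air array 1). The shares of that list, 34.8% and 26.1%, lay near those over all genes, 32.3% and 22.8%. Of 16 CXC chemokine genes 8 rose and 2 fell (2 and 1 with the actin term), and of 19 CC chemokine genes 3 and 7 (0 and 0 with the actin term, 2 and 4 without room-air array 1, hyperoxia array 1 or hyperoxia array 3). Summed neutrophil markers, a list not described here, stood at 12.97 and 13.01 in room air and 11.22 to 11.66 in hyperoxia, and their part in the cytokine values was not tested.

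In prostaglandin synthesis, Pla2g4a and Ptgs2 of the first steps rose and the synthase Ptges fell, in a list with more falls than rises. Pla2g4a, which frees arachidonic acid, was at 6.84 and 6.89 in room air and 8.65, 8.62 and 8.62 in hyperoxia (1.77 ± 0.07, adjusted p = 1.05e-07). Ptgs2, the inducible cyclooxygenase, rose from 5.67 and 5.81 to 8.62, 8.82 and 8.66 (2.96 ± 0.17, adjusted p = 8.05e-07), with 0.36 on its other probe set. Ptges, the prostaglandin E synthase, fell from 7.90 and 7.70 to 6.47, 6.75 and 6.59 (-1.19 ± 0.12; -0.58 and -0.78 on its other probe sets). The receptor Ptger4 rose by 1.68 ± 0.12 and Ptger3 by 1.06 ± 0.10. Over all 26 prostaglandin and leukotriene genes 4 rose and 9 fell, with a median of -0.15 (4 and 2 with the actin term, 4 and 5 without room-air array 1).

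Complement and coagulation genes rose more often than they fell. Of 20 complement genes 9 rose and 1 fell (6 and 0 with the actin term), and of 19 coagulation and fibrinolysis genes 9 rose and 3 fell (6 and 0 with the actin term, 9 and 5 without room-air array 2). Cd55, which protects cells from complement, was at 7.68 and 7.46 in room air and 9.80, 9.52 and 9.57 in hyperoxia (2.06 ± 0.17, adjusted p = 7.92e-06; 2.06 and 1.39 on its other probe sets). The classical pathway protease C1s1 rose by 1.34 ± 0.10 and its partner C1ra by 0.99 ± 0.08. Procr, the protein C receptor of endothelium, rose from 6.61 and 6.45 to 8.09, 8.33 and 8.25 (1.70 ± 0.10, adjusted p = 7.59e-07), and the anticoagulant protein S, Pros1, by 0.63 ± 0.08. Among acute-phase proteins haptoglobin, Hp, rose by 1.504 ± 0.10 and Saa3 by 1.32 ± 0.16 (not called with the actin term), among 18 acute-phase and protease inhibitor genes of which 9 rose and 4 fell (3 and 0 with the actin term). Of 27 interferon response genes 12 rose and 4 fell, and the median was 0.10 (0 and 1 with the actin term, 7 and 9 with scaling, 7 and 2 without room-air array 1).

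Metabolic lists changed in both directions. Fdps, which makes farnesyl pyrophosphate for cholesterol, was at 8.99 and 9.04 in room air and 7.92, 7.83 and 7.63 in hyperoxia (-1.22 ± 0.10, adjusted p = 5.61e-06), and the sterol regulator Srebf2 fell by 0.68 ± 0.08. Of 20 sterol synthesis genes 6 rose and 8 fell (0 and 4 with the actin term, 2 and 8 without room-air array 1). Of 24 fatty acid synthesis and storage genes 8 rose and 5 fell (0 and 0 with the actin term, 5 and 11 with scaling, 6 and 10 with quantile normalization). The shares of that list, 33.3% and 20.8%, lay near the 32.3% and 22.8% over all genes. Mitochondrial complex I subunits Ndufb3 and Ndufs1 rose by 0.64 ± 0.08 and 0.60 ± 0.07, whereas Uqcrc1 of complex III fell by 0.71 ± 0.08, in a list of 39 nuclear-encoded respiratory chain genes with 17 rises and 10 falls (2 and 1 with the actin term, 10 and 17 with scaling, 12 and 15 with quantile normalization, 16 and 6 without hyperoxia array 3). Ndufa4l2, a mitochondrial protein that hypoxia induces, fell by 1.81 ± 0.12. The superoxide dismutase Sod2 rose from 10.06 and 10.11 to 11.38, 11.36 and 11.36 (1.29 ± 0.08, adjusted p = 7.73e-07; 0.73, 0.54 and -0.18 on its other probe sets). The endoplasmic reticulum chaperone Calr fell by 0.88 ± 0.08, and the stress factors Atf4 and Ddit3 stood at -0.00 ± 0.09 and 0.08 ± 0.08 (neither called; 1.06 and -0.11 on other probe sets of Atf4, and -0.60 on that of Ddit3), among 30 ER stress and amino acid response genes with 8 rises and 6 falls (0 and 1 with the actin term, 2 and 9 with scaling, 1 and 9 with quantile normalization, 4 and 6 without room-air array 2 or hyperoxia array 3).

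Clock genes, whose levels swing with the hour of the day, changed in both directions. Of 21 circadian clock genes 9 rose and 6 fell (4 and 1 with the actin term, 6 and 3 without room-air array 1). The repressors Per2 and Cry1 rose, Per2 from 7.32 and 7.58 to 8.60, 8.68 and 8.62 (1.18 ± 0.09, adjusted p = 3.99e-06; 0.27 and -0.49 on its other probe sets) and Cry1 by 1.10 ± 0.10. Bhlhe40, a repressor that hypoxia also induces, rose by 1.29 ± 0.11, and Csnk1e, the kinase that marks period proteins for decay, fell by 1.02 ± 0.09 (-0.17 and -0.36 on its other probe sets). The labels give no hour of dissection, and its part in these values was not tested.

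**Figure D4:**
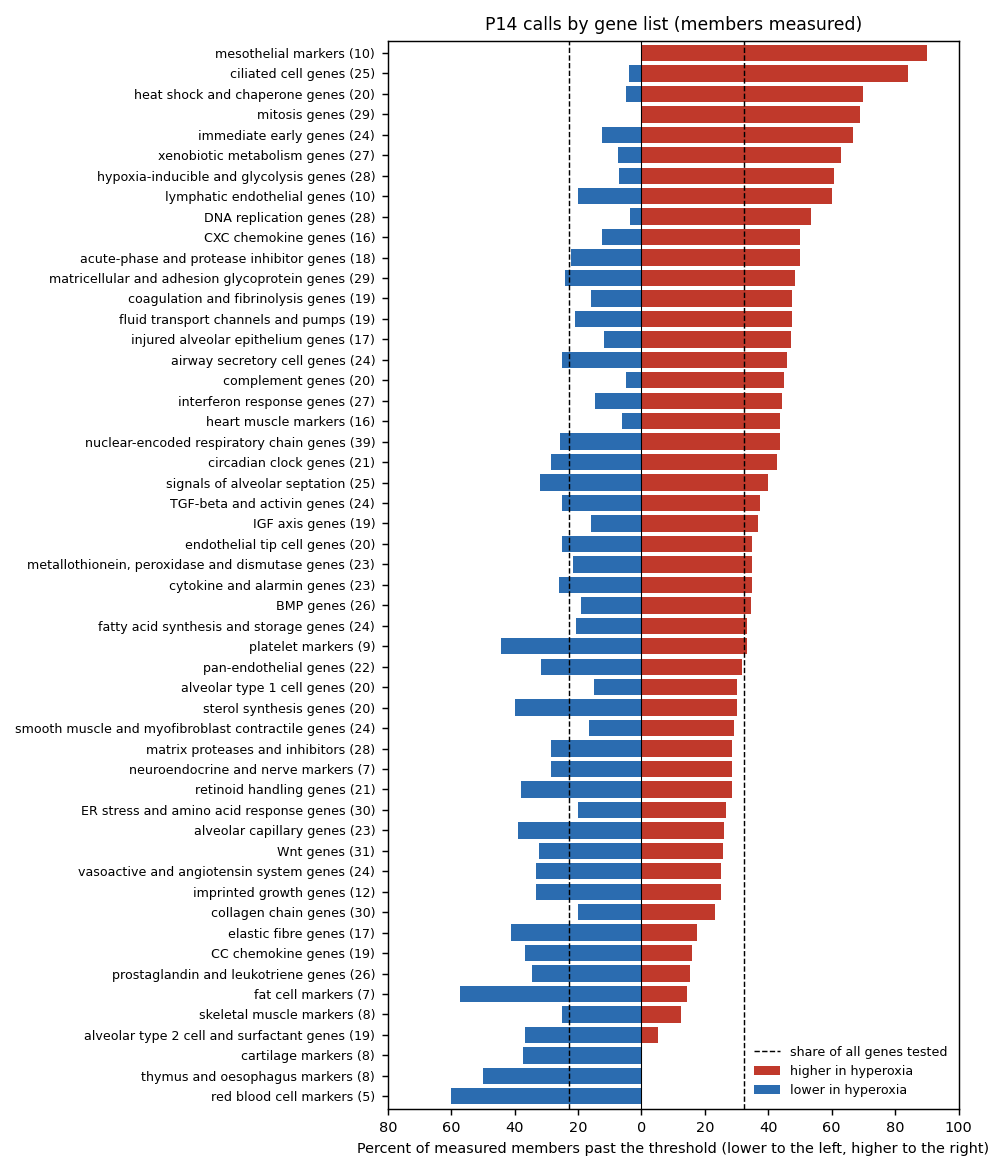
Share of each list's measured members that rose or fell at P14, in percent, with dashed lines at the shares over all genes, 32.3% and 22.8%. The mesothelial list (9 of 10) and the ciliated list (21 of 25) lie farthest above the line for rises, and elastic fibre genes (7 of 17, 41.2%) lie above that for falls. Shares of falls were larger for red blood cell (60%), fat cell (57.1%), thymus and oesophagus (50%) and platelet markers (44.4%), and sterol synthesis genes were at 40%.

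Tissues that can come along with a dissected lung were checked by their markers. With the actin term 0 red blood cell, fat cell or thymus and oesophagus markers were called, and 1 of the skeletal muscle markers and 1 of the cartilage markers fell. Red blood cell markers were lower, 3 of 5 with a median of -0.55, and the haem synthesis enzyme of red cells, Alas2, was at 11.11 and 11.38 in room air and 10.18, 10.04 and 10.23 in hyperoxia (-1.09 ± 0.28, adjusted p = 0.00668), not called without room-air array 2 (-0.96) or with the actin term (-0.84). Skeletal muscle markers rose in 1 and fell in 2 of 8 (2 and 1 with quantile normalization), cartilage markers fell in 3 of 8, and thymus and oesophagus markers fell in 4 of 8. Fat cell markers rose in 1 and fell in 4 of 7, with the fat hormone Adipoq between 3.85 and 4.14 on all P14 arrays.

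The response at P14 differed from that at P29 in 1735 genes with a higher effect at P14 (11.6%) and 1642 with a lower effect (11%), by the test of the difference of the 2 effects. At P29 itself 34.2% of genes rose and 25.6% fell. Age was not all that separated the ages. All 5 P14 arrays had the male pattern of sex-linked transcripts, whereas both P29 room-air arrays had the female pattern and the 3 P29 hyperoxia arrays were male, female and mixed, so age and sex cannot be told apart in this difference. Without the mixed array, 1506 and 1422 genes passed. Esm1 rose by 2.999 at P14 and differed by -0.52 at P29 (difference of effects 3.52, adjusted p = 4.81e-06). Gpihbp1, the capillary anchor of lipoprotein lipase, differed by -0.83 at P14 and by -3.13 at P29 (2.297, adjusted p = 0.000259), and Tek, the angiopoietin receptor, by 0.03 and -1.69 (1.72, adjusted p = 3.96e-05). The mucous cell gene Clca1 fell by 2.97 at P14 and rose by 3.31 at P29 (-6.28, adjusted p = 1.25e-05). Tnc, a matricellular protein, was -0.66 at P14 and 3.38 at P29, with levels of 12.35 and 12.45 in P14 room air and a mean of 8.07 in P29 room air. Of the 60 genes with the largest rises and falls at P14, the effect of 42 differed from that at P29.

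**Figure D5:**
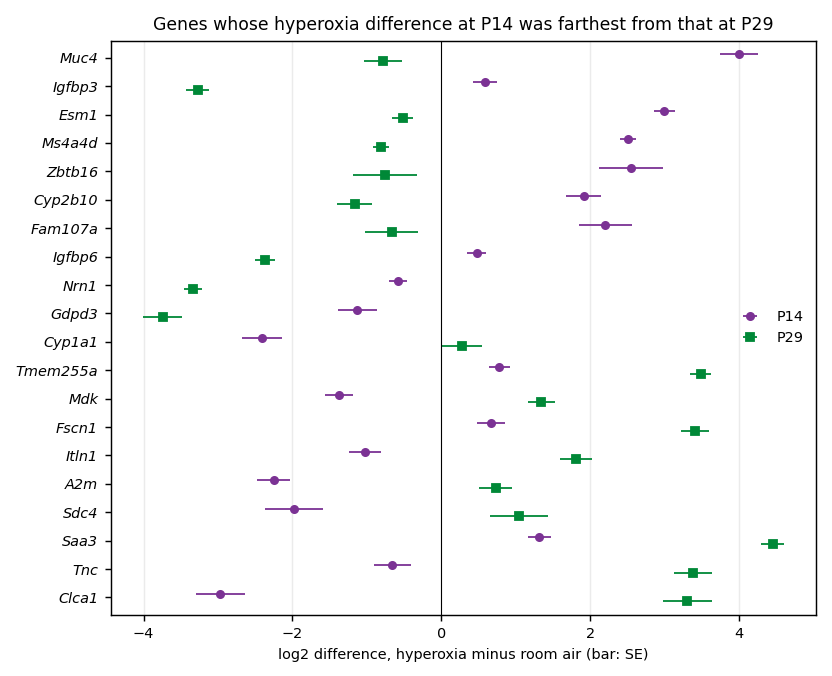
Log2 difference of hyperoxia minus room air with its SE at P14 and at P29 for the 20 genes called at P14 whose effects differed most between the ages. Clca1 is at -2.97 and 3.31, Muc4 at 4.002 and -0.79, and Saa3 at 1.32 and 4.45.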

How the data were processed

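Lung RNA was measured on 10 Affymetrix arrays of 45101 probe sets. The authors deposited log2 values; the submitters' processing notes name Partek 6.4 and GCRMA, without their settings. GCRMA models background from probe sequence, which can widen differences of dim probe sets. Of the probe sets, 34958 carried 1 gene symbol in the platform annotation and were used, 932 several and 9211 none. Each gene took its probe set of highest mean, and genes reaching log2 5 on 2 arrays or more were tested. The 4 group means were fitted over all 10 arrays with limma 3.58.1 in R 4.3.3 (lmFit, eBayes; 6 residual and 5.09 prior degrees of freedom). Tests were two-sided and adjusted by Benjamini-Hochberg. The 60 gene lists held 1396 places, of which 103 had no probe set, 82 lay below the filter and 1211 were measured; the 8 lists of p53, Nrf2 and leukocyte genes are not described. The comparison and the lists were chosen with earlier results of these data known. Genes named are the 30 largest rises and 30 largest falls without overlap, the first 3 genes and up to 4 of smallest p of each list, and the 10 with the largest difference of effect each way; Akr1b8, Abcb1a, Cyp1b1, Egln3, Vegfa, Egr1, Tppp3, Lrrn4, Wt1, Pigr, Tff2, Muc5b, Edn1, Ccn1, Col4a1, Col4a2, Col4a3, Col4a6 and those noted in the text were added after their values were seen. Promoters are those of RefSeq on GRCm38.p6. Steps were tested on simulated data. The number of arrays limits the precision.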

Additional observations from a re-analysis of the deposited data

Results flagged for a closer look

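The response to oxygen differed between the ages in 1735 genes with a higher and 1642 with a lower effect at P14 than at P29, by the test of that difference. Among genes called at P14, the effect at P14 minus that at P29 was highest for Muc4 (4.79), Igfbp3 (3.86), Esm1 (3.52), Ms4a4d (3.31), Zbtb16 (3.31), Cyp2b10 (3.07), Fam107a (2.87), Igfbp6 (2.85), Nrn1 (2.76) and Gdpd3 (2.62). It was lowest for Clca1 (-6.28), Tnc (-4.04), Saa3 (-3.13), Sdc4 (-3.02), A2m (-2.98), Itln1 (-2.83), Fscn1 (-2.74), Mdk (-2.72), Tmem255a (-2.71) and Cyp1a1 (-2.69). All 20 passed the threshold for this difference under each of the 18 alternatives that hold both ages. Other probe sets gave P14 differences far from the value used for Muc4 (0.38), Fam107a (0.48), Sdc4 (1.004), Zbtb16 (0.72 on 1 of them), Igfbp3 (-0.06), Tmem255a (0.06) and Fscn1 (-0.60, -0.85 and -1.49).

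Control probe sets outside the gene tests were higher on the P14 hyperoxia arrays than on the room-air arrays. The actin 3′ minus 5′ difference had a mean of 1.69 against 0.43, the 18S control 9.32 against 7.51 and the spiked-in hybridisation controls 11.21 against 10.53.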

How the results depend on the processing

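Of 370 genes named by rule 313 were called, and 144 of these kept direction and call under every alternative. Counts of genes higher and lower, 4838 and 3412, became 3212 and 5867 after scaling to the 75th percentile (362 and 316 by 2-fold or more) and 812 and 579 with the actin term (388 higher by 2-fold or more). Averaging probe sets left 354 genes higher by 2-fold or more. It reversed the sign for Fscn1 (-0.57), Tmem255a (-0.008), Ager (-0.24), Sftpc (0.61), Cdh5 (-0.71), Lamb1 (-0.002), Hhip (-0.024), Timp3 (-0.13), Igfbp5 (-0.092), Npas2 (0.23), Atf4 (0.32), Ddit3 (-0.26), Cxcl1 (0.89), Ccr2 (-0.19), C1qb (0.66) and Thrsp (0.14), whose probe sets disagree. Leaving out each array in turn gave 3556 to 4875 higher and 2355 to 3436 lower, 479 to 788 and 147 to 191 by 2-fold or more, and 1338 to 1683 and 1099 to 1861 for the difference of effects; both low counts at P14 came without room-air array 1. Deviations from the group mean of same-numbered arrays correlated at 0.11 and 0.01 at P14, and at -0.09 and -0.07 at P29. With 2 room-air arrays an age, their deviations mirror each other, so these values cannot show whether replicate numbers pair the arrays. With a replicate block 3960 genes were higher and 2787 lower, and 895 and 898 passed for the difference of effects. Low, background-corrected signals limit what dim genes can show. The cause of these shifts was not tested.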
